A study of Arabidopsis thaliana with 9 samples.

Results

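AT1G19900 of the galactose and glyoxal oxidase family, AT1G30760 of the berberine bridge enzyme family and AT1G31710 of the copper amine oxidase family are 3 of the 13355 genes that have a probe set naming a single gene. They were taken by locus number, with their low values in both altered genotypes already known, so their differences between genotypes are given as a description, without a test. AT1G19900 and AT1G30760 had 1 probe set each and AT1G31710 had 2, named 246601_at and 246602_at, which makes 4 probe sets in all. A gene is called measured here where the platform annotation gives it a probe set of its own. Other loci may have probe sets that the annotation did not list or gave to several genes.

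The RNA came from whole Arabidopsis thaliana seedlings of the ecotype Columbia-0 (Col-0), kept in darkness for 108 hours on solid medium with 1% sucrose. There were 3 genotypes with 3 single-colour arrays each. Col was the wild type. The bri1-116 seedlings were homozygous null mutants for BRI1, the brassinosteroid receptor, and were taken one by one, after freezing, out of a population that segregated the mutation. AtGATA2ox was a transgenic line in the Columbia background that overexpresses the transcription factor gene AtGATA2 (At2g45050). It is a single line, and its promoter is not stated. The series asks how light and brassinosteroid signals meet in plant development. In RNA of whole seedlings, fewer cells that express a gene and less transcript per cell cannot be told apart.

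Galactose and glyoxal oxidases are copper enzymes that act on sugars or aldehydes and release hydrogen peroxide, and AT1G19900, known as RUBY, is a putative galactose oxidase that promotes cell adhesion through pectin in the Arabidopsis seed coat. Berberine bridge enzymes carry a bound flavin and oxidise sugars, alcohols or alkaloids, and the product of AT1G30760 has been described as oxidising monolignols, the alcohols from which lignin is made. Members of this family differ in how readily they react with oxygen. Copper amine oxidases break down putrescine and other polyamines with release of hydrogen peroxide, and in Arabidopsis they occur in the cell wall space or in peroxisomes. Transcript levels do not show where a protein resides, so the genes are called here by their families. Brassinosteroids act through BRI1 to promote cell elongation and wall loosening in dark-grown hypocotyls.

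The values are linear intensities with the same trimmed mean on every array, and the median of an array lay between 104.3 and 147.3. The highest of 27 Bacillus control probe sets, whose targets plants lack, was 37.6 to 84.1 on an array and is used as a mark of background. The actin 3′ signal divided by the 5′ signal, a measure of how short the RNA or cDNA is, was 1.81 to 2.03 on Col arrays, 2.86 to 4.88 on those of bri1-116 and 3.66 to 5.45 on those of AtGATA2ox. It was thus higher on all arrays of the altered genotypes, where the 3 genes were low, and its part in the results was not tested. The 25S ribosomal RNA control was at 8762.9 and 3533.8 on bri1-116 replicates 1 and 2 and at no more than 502.8 on the other arrays. The AtGATA2ox arrays have records apart from the others, and a separate hybridisation and the genotype cannot be told apart. Of 5 root and root hair markers 2 were measured, EXPA18, whose mean was 80.5 in Col, 42.7 for bri1-116 and 16.2 for AtGATA2ox, and EXPA7, whose mean was 34.9, 50.8 and 57.4. EXPA18 was below the highest Bacillus control on 5 of the 9 arrays and EXPA7 on 7, so many of these readings lie within background. The part of these markers in the results was not tested. Markers of xylem, seeds and flowers were not analysed here, nor were AtGATA2 and BRI1.

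AT1G19900 was well above the Bacillus controls in wild-type seedlings and below the highest of them in both altered genotypes. Its intensity was 120.4, 267.4 and 637.6 on the Col arrays. It was 26.6, 2.6 and 6.5 on the bri1-116 arrays and 6, 3.7 and 23.2 on the AtGATA2ox arrays. The lowest Col array was 4.53 times the highest bri1-116 array and 5.19 times the highest AtGATA2ox array, so neither genotype overlapped with Col, while bri1-116 and AtGATA2ox overlapped with each other. The Col arrays differed among themselves by 5.3-fold.

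Log2 fold changes come from a limma fit of log2(intensity + 1) over all 22746 probe sets and 9 arrays, and are given ± SE. For AT1G19900 the value was -4.89 ± 0.94 in AtGATA2ox and -4.92 ± 0.94 in bri1-116 against Col, the 12th and the 7th lowest of all probe sets. All 6 values behind the altered genotypes lay below the highest Bacillus control of their array, so these sizes rest on readings within background. With every reading raised to at least that control, AT1G19900 was at least 4.05-fold lower in AtGATA2ox and at least 5.03-fold lower in bri1-116. Ranked within each array, where scaling between arrays plays no part, AT1G19900 stood at percentile 47.5 to 78.1 in Col, at 2.21 to 20.1 in bri1-116 and at 4.63 to 21.4 in AtGATA2ox.

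AT1G30760 showed the same separation with a tighter wild type. Its intensity was 221.7, 313.4 and 304.6 in Col. It was 26.3, 9.8 and 35.9 in bri1-116, and 27.1, 17.3 and 11.4 in AtGATA2ox. The Col arrays spanned 1.41-fold, and the lowest of them was 6.18 times the highest bri1-116 array and 8.18 times the highest AtGATA2ox array. The altered genotypes again overlapped with each other. The log2 fold change was -3.90 ± 0.62 in AtGATA2ox and -3.65 ± 0.62 in bri1-116, the 49th and the 42nd lowest. All 6 values of the altered genotypes were below the highest Bacillus control, most narrowly on bri1-116 replicate 3, with 35.9 against 37.6. Counted against that floor, AT1G30760 was at least 4.09-fold lower in AtGATA2ox and at least 5.08-fold lower in bri1-116. Its percentile within the array was 58.8 to 65.1 in Col. The bri1-116 arrays placed it at 12 to 26.7, and the AtGATA2ox arrays at 14.4 to 20.7.

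**Figure D1:**
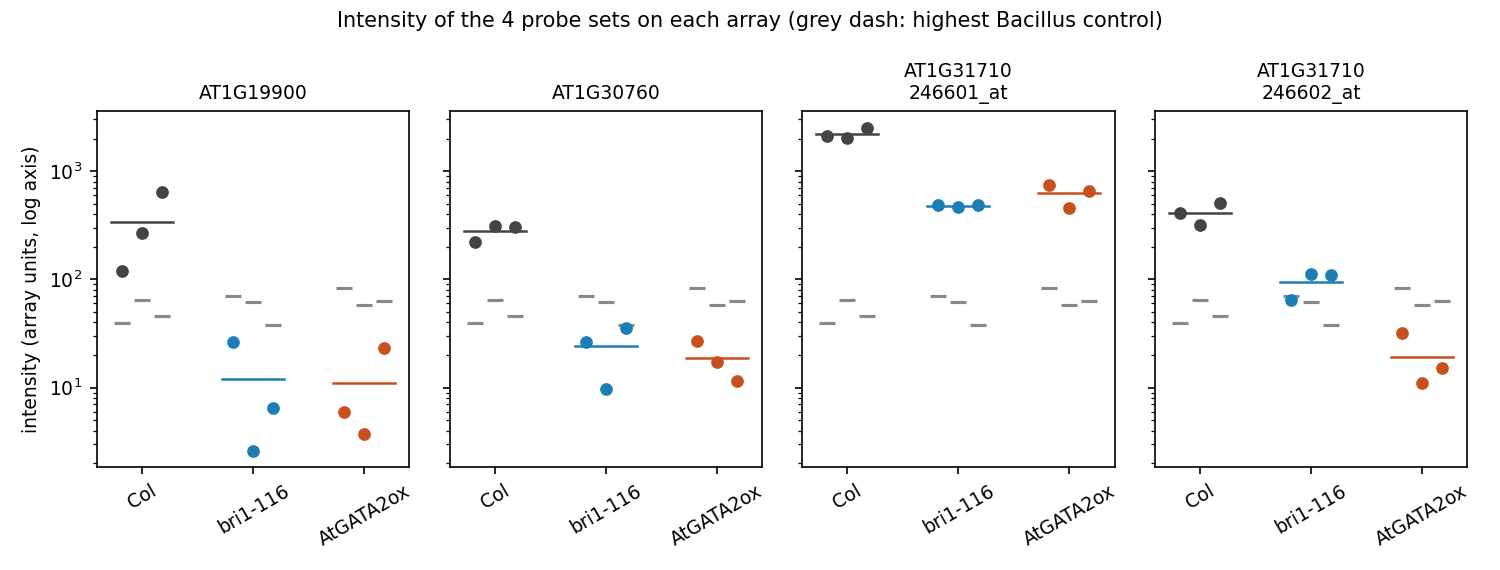
Intensity of each of the 4 probe sets (log axis, array units) on the 3 arrays of Col, bri1-116 and AtGATA2ox. Points are arrays in order of replicate number, horizontal lines are group means, and grey dashes mark the highest Bacillus control of each array. AT1G19900 and AT1G30760 lie above the dashes in Col and below them in both altered genotypes, whereas 246601_at is above them on all 9 arrays.

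AT1G31710 was lower in both altered genotypes on both of its probe sets, by a like amount in bri1-116, while in AtGATA2ox one of them read below background. Probe set 246601_at read 2119, 2033.1 and 2521.5 in Col. It read 486.4, 461.8 and 488.1 in bri1-116, and 752, 453.6 and 662.3 in AtGATA2ox. The lowest Col array was 4.17 times the highest bri1-116 array and 2.7 times the highest AtGATA2ox array. All 9 values were above every Bacillus control, so the size of this difference does not rest on background readings. The log2 fold change against Col was -2.21 ± 0.19 in bri1-116 (4.62-fold) and -1.86 ± 0.19 in AtGATA2ox (3.63-fold). The percentile within the array was 92.1 to 93.6 in Col. In bri1-116 it was 73.1 to 74.7, and in AtGATA2ox 75.5 to 82.6.

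Probe set 246602_at read 408.2, 316.8 and 504.5 in Col. It read 64.9, 112.4 and 108.8 in bri1-116, where replicate 1 was below the highest Bacillus control of its array. It read 31.8, 11 and 15.3 in AtGATA2ox, all below that control. The bri1-116 arrays thus lay between the other groups with no overlap on either side. The log2 fold change against Col was -2.11 ± 0.47 in bri1-116 (4.31-fold) and -4.44 ± 0.47 in AtGATA2ox, or at least 5.95-fold lower when counted against the floor. Between AtGATA2ox and bri1-116 it was -2.33 ± 0.47, which came to -0.49 with the floor. Over all probe sets, 23.1% were lower in AtGATA2ox than in bri1-116 without overlap, and 14.5% higher, and nothing is read from this 1 probe set.

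The ratio of the 2 probe sets within an array is free of scaling between arrays. The ratio of 246601_at to 246602_at was 5.19, 6.42 and 5 on the Col arrays and 7.49, 4.11 and 4.49 on the bri1-116 arrays. On the AtGATA2ox arrays it was 23.6, 41.2 and 43.3, above all others as read. With readings raised to the floor the ratio was 7.81 to 10.5 in AtGATA2ox, which are then lower bounds, above the 5 to 6.42 of Col. In bri1-116 it was then 4.11 to 7, and the 7 of replicate 1 is itself a lower bound, so separation from that array is not shown. The log2 fold changes of the 2 probe sets against Col differed by 2.58 in AtGATA2ox and by 0.10 in bri1-116. Among 147 genes with more than 1 single-gene probe set, 12 had a larger distance in AtGATA2ox, where the median was 0.84, and 138 had a larger one in bri1-116, where the median was 0.60. The distance in AtGATA2ox rests on background readings of 246602_at: with the floor it was 0.71, a larger one was found for 52 of the 147 genes, and their median was 0.44. Where on the transcript the probes lie was not analysed here.

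**Figure D2:**
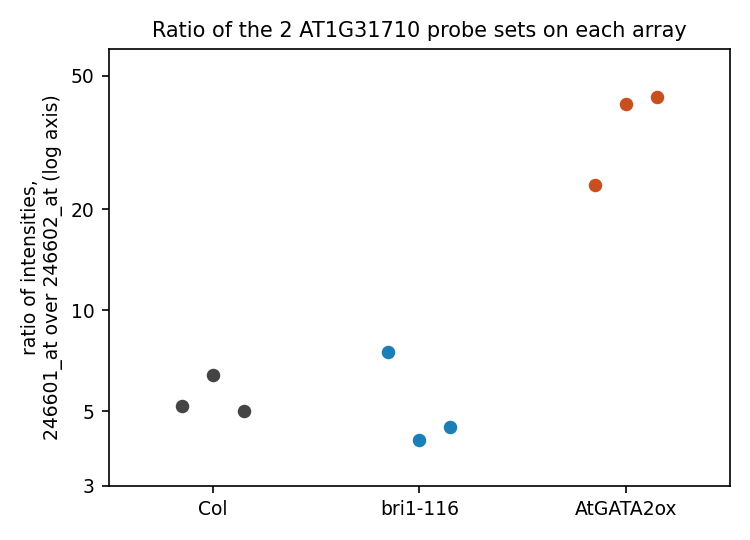
Intensity of 246601_at divided by that of 246602_at, both for AT1G31710, on each array (log axis). Points are the 3 arrays of each genotype, and the ratio is between 4.11 and 7.49 on the Col and bri1-116 arrays and between 23.6 and 43.3 on the AtGATA2ox arrays.

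All 4 probe sets were lower than Col in both altered genotypes with no overlap of arrays. Of all probe sets, 25.7% were lower without overlap in AtGATA2ox and 19.3% in bri1-116, and since the genes were chosen on these comparisons nothing is read from the count. The comparisons with Col share the 3 Col arrays, so a gene's fold changes in the altered genotypes are not independent of each other. Between AtGATA2ox and bri1-116 the arrays of 246601_at overlapped, with a log2 difference of 0.35 ± 0.19 that was -0.23 with arrays scaled to their hybridisation controls. For AT1G19900 and AT1G30760 both genotypes were below background on every array, and no difference between them is given.

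Over the 9 arrays, Pearson's r of the log2 values was 0.729 to 0.933 for the 6 pairs of probe sets, a description of arrays that share their RNA and scaling and of which the Col arrays were highest on every probe set. Within Col the order of the arrays differed between genes. Replicate 3 was highest for AT1G19900 and both AT1G31710 probe sets, and replicate 2 for AT1G30760. Replicate 1 was lowest for AT1G19900 and AT1G30760, and replicate 2 for both AT1G31710 probe sets.

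Leaving out any 1 array kept every fold change of the 4 probe sets against Col below 0. AT1G19900 then ranged from -5.58 to -4.28 in AtGATA2ox and from -5.73 to -4.26 in bri1-116, and AT1G30760 from -4.20 to -3.61 and from -4.02 to -3.13. Probe set 246601_at ranged from -2.01 to -1.65 in AtGATA2ox and from -2.27 to -2.11 in bri1-116. With bri1-116 replicate 3 alone, which leaves out both arrays of high 25S ribosomal RNA, AT1G30760 was at -2.91 against Col.

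**Figure D3:**
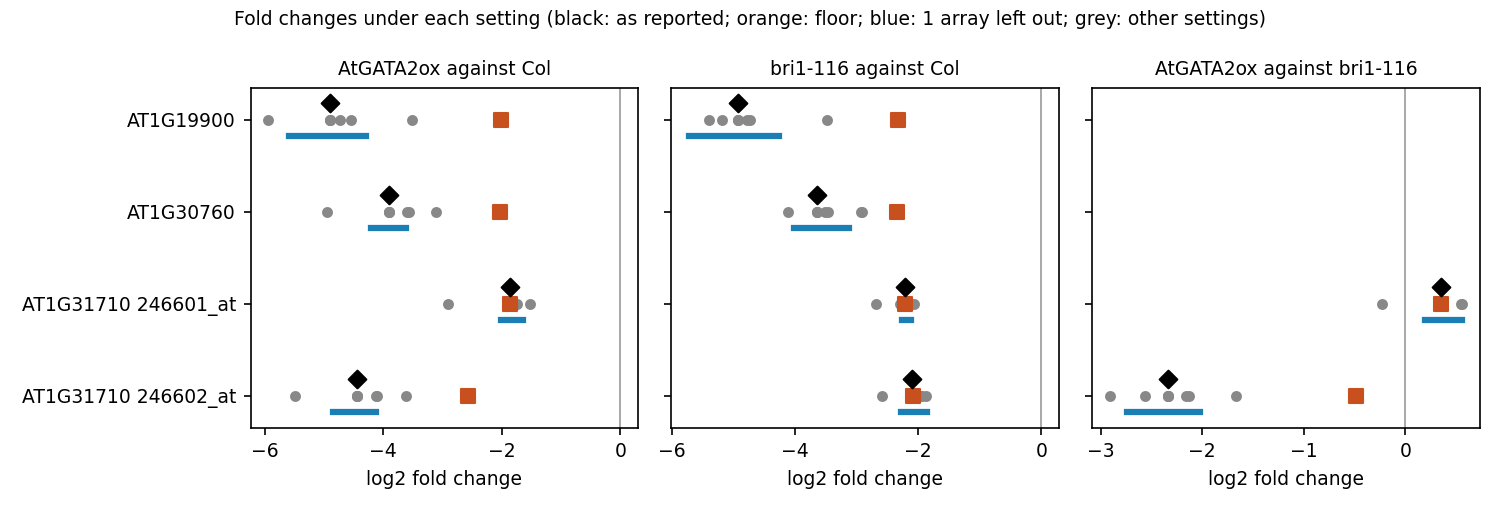
Log2 fold changes of the 4 probe sets in the 3 comparisons, without AT1G19900 and AT1G30760 in the third, where both genotypes were below background. Black diamonds are the values as reported, blue bars the range over leaving out each array in turn, grey points the other settings and orange squares the values with readings raised to the highest Bacillus control of the array. Against Col all values are below 0, and the floor moves AT1G19900, AT1G30760 and, in AtGATA2ox, 246602_at toward 0, while 246601_at keeps its -1.86 and -2.21.

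The genes whose pattern over the 9 arrays was most like each probe set were found by the root mean square difference (RMS, log2 units) of values centred on each probe set's own mean. Candidates were the single-gene probe sets that reached the median of all values, 124.5, in at least 1 genotype, 6915 for AT1G19900 and AT1G30760 and 6914 for AT1G31710. The search used the same 9 arrays on which the 3 genes were already known to be low in both altered genotypes. That the genes found were also low there follows from the search, so their means are a description. For AT1G19900 the nearest were AT2G34700 (RMS 1.00), AT1G30760 itself (1.21), XTH19 of the xyloglucan endotransglucosylase family (1.23), SWEET3 of the sugar transporter family (1.24) and PME61 of the pectin methylesterase family (1.26). XTH19 averaged 4044 ± 318 in Col, 426 ± 91.4 in bri1-116 and 219 ± 40.8 in AtGATA2ox (SD, n = 3). For AT1G30760 the nearest was PME61 (0.54), at 901 ± 108, 78.5 ± 16 and 100.3 ± 26.7 in the same order. It was followed by AT5G24580 (0.61), AT1G75900 (0.62), AT5G67020 (0.67) and AT5G38030 (0.70). PME61 was the 1 gene among the nearest 5 of both. Taken the other way, AT1G19900 was 165th nearest to AT1G30760. Probe sets 246601_at and 246602_at were 73rd and 98th nearest to AT1G19900, and 60th and 88th nearest to AT1G30760.

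For 246601_at of AT1G31710 the nearest were the beta-expansin gene EXPB1 (0.21), AT5G55960 (0.23), AT5G42860 (0.26), the class III peroxidase gene AT5G66390 (0.26) and AT4G18970 (0.27). EXPB1 averaged 1036 ± 82.0 in Col, 258 ± 32.0 in bri1-116 and 276 ± 20.02 in AtGATA2ox. For 246602_at they were AT1G27030 (0.52), TBL38 (0.55), AT2G16980 (0.57), AT3G26450 (0.58) and AT5G48800 (0.59). AT1G27030 averaged 8344 ± 1076, 1492 ± 396 and 265 ± 31.8 in Col, bri1-116 and AtGATA2ox. The nearest 5 of one AT1G31710 probe set and the nearest 5 of the other had 0 genes in common. AT1G30760 and AT1G19900 ranked 2668th and 6590th from 246601_at, and 164th and 3099th from 246602_at. The RMS counts the size of a difference as well as its direction, unlike Pearson's r, which was 0.933 and 0.919 with 246601_at. For AT1G30760 and AT1G19900 those sizes rest on readings within background, so a distant rank here or above does not show an unlike order of genotypes.

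Other measured genes of the same families give the setting for these values. Of 44 family loci 35 were measured, the 3 described genes and 32 others, of which 8 stayed below the highest Bacillus control on all 9 arrays. Called means a limma adjusted p under 0.05 over all probe sets. In AtGATA2ox against Col, 4 of the 32 were called higher, where 9.72% of all probe sets were, and 4 lower, where 18.8% were. In bri1-116 against Col 1 was called higher (7.09% of all probe sets) and 3 lower (8%). In AtGATA2ox against bri1-116 5 were called higher (9.55%) and 2 lower (17.2%). Together 25% of the 32 were called in AtGATA2ox and 12.5% in bri1-116 against Col, where 28.5% and 15.1% of all probe sets were, so the shares are near the background. The median log2 fold change of the 32 was 0.02 in AtGATA2ox and -0.43 in bri1-116, against -0.17 and -0.02 over all probe sets.

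Of the 32, AT5G44380 and AT3G43670 were called lower in both altered genotypes. AT5G44380, of the same family as AT1G30760, read 1000.2, 1710.2 and 1091.9 in Col, 169.9, 256.6 and 138.2 in bri1-116, and 167.5, 69.2 and 132.4 in AtGATA2ox. Its log2 fold change was -3.40 ± 0.34 in AtGATA2ox (limma adjusted p = 9.9e-06) and -2.75 ± 0.34 in bri1-116 (adjusted p = 1e-04), and it was above the Bacillus controls on all 9 arrays. AT3G43670, of the same family as AT1G31710, averaged 2029 ± 183 in Col, 796 ± 96.1 in bri1-116 and 542 ± 111 in AtGATA2ox. Its log2 fold change was -1.92 ± 0.17 in AtGATA2ox (limma adjusted p = 3.9e-06) and -1.35 ± 0.17 in bri1-116 (adjusted p = 0.00012). These calls held in every other setting run.

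Other relatives of AT1G30760 had other patterns. AT4G20830, which encodes the oligogalacturonide oxidase OGOX1, was at 2334 ± 1003 in Col, 1001 ± 122 in bri1-116 and 4436 ± 685 in AtGATA2ox. It was higher in AtGATA2ox than in bri1-116 by 2.14 ± 0.27 (limma adjusted p = 7.8e-05), while 1.02 ± 0.27 against Col (adjusted p = 0.013) was 0.62 without Col replicate 1 and came to -0.028 when arrays were scaled to their hybridisation controls. AT1G30700 was higher in AtGATA2ox than in Col by 1.98 ± 0.65 (limma adjusted p = 0.035), a call lost in 6 of 18 other settings, among them without AtGATA2ox replicate 2 (adjusted p = 0.11), AtGATA2ox replicate 3 (0.091) or bri1-116 replicate 3 (0.052). Without Col replicate 1 the difference was 0.91, and without Col replicate 2 it was 2.58. In AtGATA2ox AT1G30700 was also higher than in bri1-116, by 3.28 ± 0.65 (limma adjusted p = 0.0019), and by 2.70 to 3.58 in the other settings. Its Col arrays read 81.5, 841.4 and 687.6, a 10.3-fold span where AT1G30760 spanned 1.41-fold. AT1G26380, AT1G26390, AT1G26410 and AT1G26420 also were lowest on Col replicate 1, spanned 10.1-fold to 32.1-fold within Col, and were not called in any comparison. AT1G26380 (FOX1) acts in pathogen-induced defence metabolism. AT4G20820 read 223.7, 276.3 and 175.1 in Col and 52, 9.4 and 19.3 in AtGATA2ox, where all 3 values were below the highest Bacillus control of their array. Its fall in AtGATA2ox of -3.31 ± 0.58 (limma adjusted p = 0.0008) came to -1.71 with the floor, a lower bound on its size, and was -3.93 without AtGATA2ox replicate 1.

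Among relatives of AT1G19900, AT3G53950 was at 447 ± 41.8 in Col, 740.1 ± 39.3 in bri1-116 and 1356 ± 651 in AtGATA2ox. It rose in AtGATA2ox by 1.5 ± 0.25 (limma adjusted p = 0.00053), which came to 0.45, not called, once arrays were scaled to their hybridisation controls. AT1G75620 was called lower in AtGATA2ox (-0.96 ± 0.33, limma adjusted p = 0.044), but in 12 of 18 other settings it was not. Among relatives of AT1G31710, CuAO1 (AT1G62810), an enzyme of the cell wall space, averaged 503 ± 36.1 in Col and 1078 ± 180 in AtGATA2ox (1.09 ± 0.17, limma adjusted p = 0.00042), and this came to 0.04 with the same scaling. AT2G42490 was at 2109 ± 268 in Col, 2201 ± 144 in bri1-116 and 2093 ± 230 in AtGATA2ox and was not called.

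**Figure D4:**
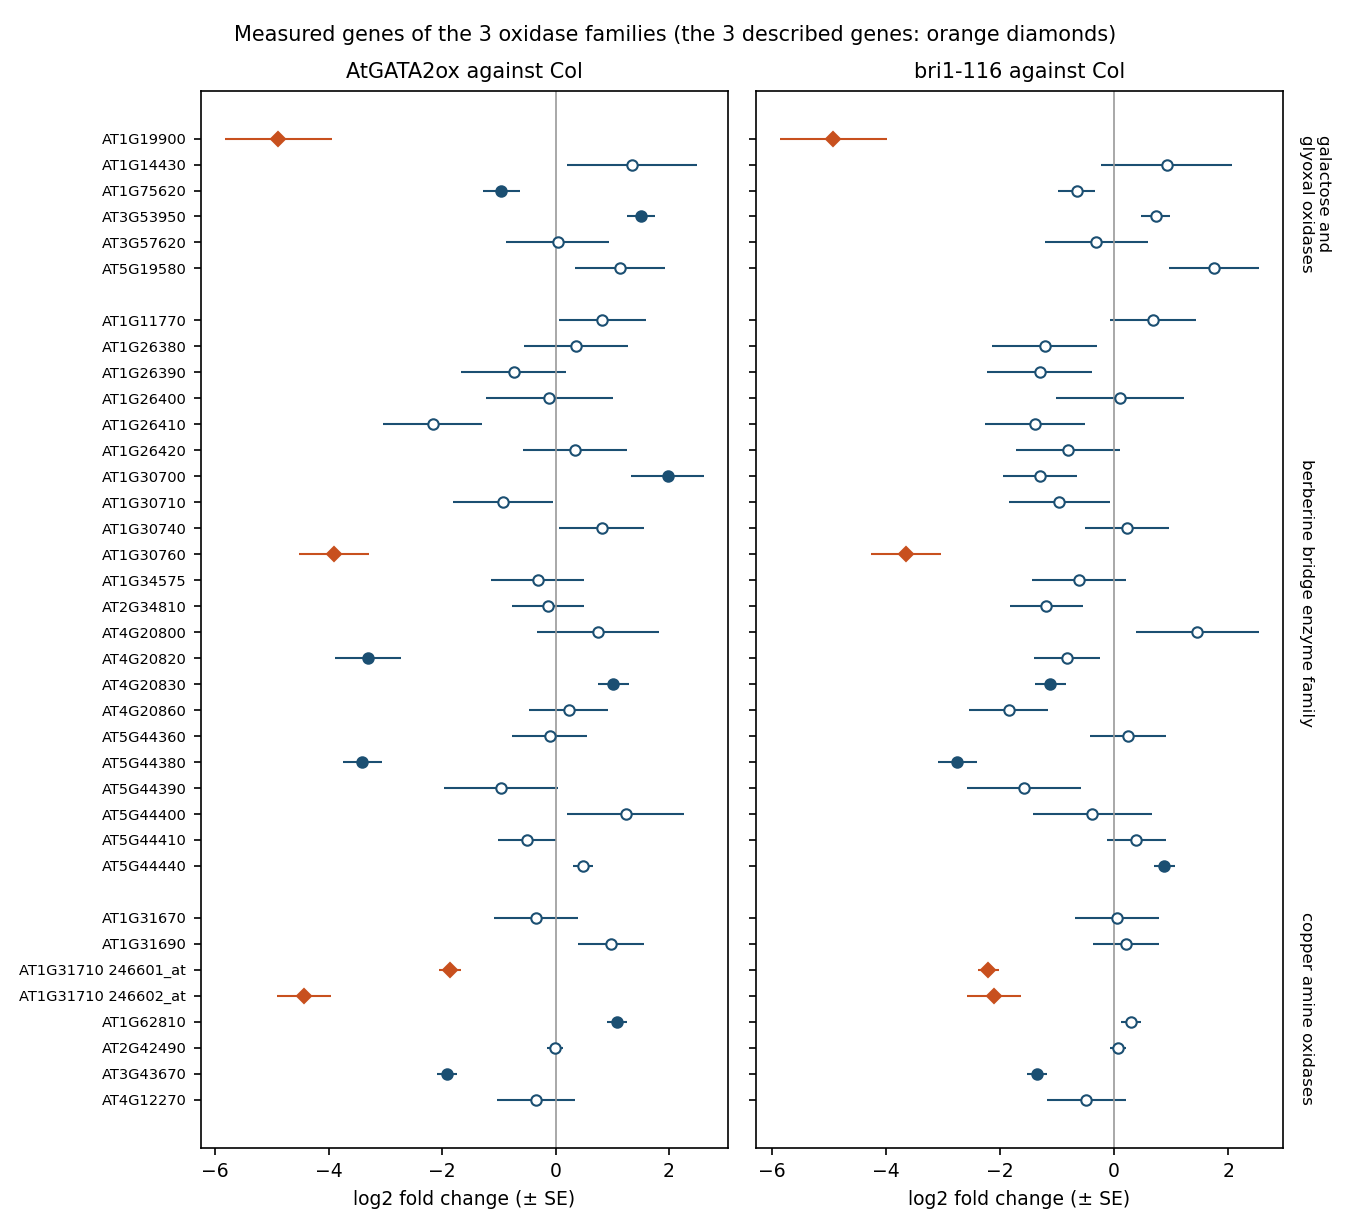
Log2 fold change against Col (± SE of the limma fit) of the 35 measured genes of the 3 families in AtGATA2ox and bri1-116. Orange diamonds are the 3 described genes, with both probe sets of AT1G31710 and no test, and circles are the other 32, filled where called. Circles lie on both sides of 0, and AT5G44380 is the lowest of them in both panels, at -3.40 and -2.75.

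Further lists of oxidases added 17 measured genes, namely 1 of 17 laccases, 7 of 19 SKU5-like and ascorbate oxidases, 3 of 10 NADPH oxidases, 0 of 5 polyamine oxidases and 6 class III peroxidases found by name. With the 32 family genes, 5 of 49 were called higher and 8 lower in AtGATA2ox (26.5% in all) and 1 higher and 7 lower in bri1-116 (16.3%). With both directions together these shares are near the 28.5% and 15.1% of all probe sets. By direction, 14.3% of the 49 were called lower in bri1-116 (8% of all probe sets) and 1 higher (7.09%). In AtGATA2ox 16.3% were called lower (18.8%) and 5 genes higher (9.72%). In AtGATA2ox against bri1-116, 8 of the 49 were called higher (9.55%) and 3 lower (17.2%). The median log2 fold change of the 49 was -0.38 in bri1-116 and -0.03 in AtGATA2ox, against -0.02 and -0.17 over all probe sets. The ascorbate oxidase family gene AT5G21105 averaged 2010 ± 274 in Col, 831 ± 44.8 in bri1-116 and 860 ± 115 in AtGATA2ox (limma adjusted p = 9.4e-05 and 6.7e-05). AT5G66390, the peroxidase gene near 246601_at in pattern, was lower in both (-1.89 ± 0.20 in AtGATA2ox and -1.84 ± 0.20 in bri1-116), as was the peroxidase gene AT2G41480 (-1.88 ± 0.26 and -1.43 ± 0.26). PRX52, a peroxidase gene linked to lignin, was higher in AtGATA2ox by 1.94 ± 0.46 (limma adjusted p = 0.0059), which came to 0.89, not called, under the scaling to hybridisation controls. Its Col arrays read 39.3, 53.5 and 53.4, close to background, and it was below the highest Bacillus control on 4 arrays. With the floor the rise was 1.87.

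Neighbouring genes were read in the gene order of RefSeq assembly TAIR10.1. Of the 5 loci on each side of the 3 genes, 16 of 30 were measured. Against Col, 1 was called lower and 0 higher in AtGATA2ox, where 18.8% and 9.72% of all probe sets were, and 1 lower and 0 higher in bri1-116, where 8% and 7.09% were. In AtGATA2ox against bri1-116, 1 was called higher and 2 lower, where 9.55% and 17.2% of all probe sets were. The gene called against Col was AT1G30750, near AT1G30760, at -1.25 ± 0.26 in AtGATA2ox (limma adjusted p = 0.0027) and -0.87 ± 0.26 in bri1-116 (adjusted p = 0.039). The copper amine oxidase genes AT1G31670 and AT1G31690, which come just before AT1G31710, were not called, with log2 fold changes of -0.34 ± 0.73 and 0.97 ± 0.58 in AtGATA2ox and 0.05 ± 0.73 and 0.21 ± 0.58 in bri1-116. AT1G31670 was below the highest Bacillus control on all 9 arrays, as was AT1G30740, a relative of AT1G30760 that lies near it.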

How the data were processed

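Each array's deposited value for a probe set is a linear intensity. MAS5 and GCRMA are named, per the submitters' processing notes, without versions or a word on which produced this table. Tested on the values, the mean of each array without the lowest and highest 2% of probe sets was 500. Apart from the RefSeq assembly TAIR10.1 used for gene order, no genome build is given in the sources used here, nor is any detection call. No coordinates are printed. Of 22810 probe sets 64 controls were left out and 22746 tested. The platform annotation gave 1 gene for 13513, several for 503 and did not list 8730, and 13436 matched RefSeq (TAIR10.1).

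From these, log2(intensity + 1) was fitted by genotype over all 9 arrays with limma 3.58.1 in R 4.3.3 (lmFit, eBayes with an intensity trend, 6 residual degrees of freedom). The procedure was run on simulated data with changes placed only in probe sets brighter than the median, so it was not tried on changes in dimmer ones. Calls are Benjamini-Hochberg adjusted p under 0.05 over all probe sets. A gene with several probe sets entered counts by its brightest one. The genes and lists were chosen with earlier results of these data known. Named were the 3 genes, genes of their families, up to 6 genes of each further list, neighbours within 5 loci and the 5 nearest in pattern. No label says that arrays came from separate cultures, so p-values measure the spread between these samples, which may be technical. The number of arrays limits the precision. The other settings tried were quantile normalisation, median centring, scaling to 18 hybridisation controls, a pseudocount of 16, removal of the dimmest 40% of probe sets, eBayes without a trend, fits of 2 genotypes, a replicate block and each array left out. The Bacillus floor and the removal of both bri1-116 arrays of high 25S ribosomal RNA were chosen after seeing the data. Deviations of same-numbered arrays correlated at -0.02 to 0.02 over 9 pairs, and those of differently numbered arrays at -0.04 to 0.03 over 18. Over all probe sets, same-numbered arrays were thus no more alike than others. A pairing limited to some genes was not tested.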

Additional observations from a re-analysis of the deposited data

How the results depend on the processing

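The 4 probe sets stayed below Col in both altered genotypes in every setting run, except that removal of the dimmest 40% of probe sets left no value for AT1G19900 and AT1G30760. AT1G19900 in AtGATA2ox and bri1-116 was at -2.02 and -2.33 with the Bacillus floor and at -3.51 and -3.49 with a pseudocount of 16. AT1G30760 was at -2.03 and -2.34 with the floor, at -3.11 and -2.93 with that pseudocount, at -4.95 in AtGATA2ox with scaling to the hybridisation controls, and, with bri1-116 replicate 3 alone, at -2.91 in bri1-116. Probe set 246601_at was at -1.52 in AtGATA2ox with median centring and at -2.91 and -2.68 in AtGATA2ox and bri1-116 with hybridisation control scaling, which turned AtGATA2ox against bri1-116 from 0.35 to -0.23. Probe set 246602_at in AtGATA2ox was at -2.57, -3.61 and -5.49 against Col and at -0.49, -1.67 and -2.91 against bri1-116 with the floor, the pseudocount and hybridisation control scaling. Without 1 array, AtGATA2ox against bri1-116 ran from 0.20 to 0.56 for 246601_at and -2.74 to -2.02 for 246602_at, and no values are given for AT1G19900 and AT1G30760, which were below background in both. Against Col, the ranges were -5.58 to -4.28 and -5.73 to -4.26, -4.20 to -3.61 and -4.02 to -3.13, -2.01 to -1.65 and -2.27 to -2.11, and -4.85 to -4.13 and -2.28 to -1.85 in AtGATA2ox and bri1-116 for the probe sets in that order.

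With hybridisation control scaling the median over all probe sets in AtGATA2ox against Col went from -0.17 to -1.22, and the rise of AT4G20830 there from 1.02 to -0.028, on the log2 scale. Of probe sets called, AtGATA2ox against Col had 2211 higher and 4275 lower, but 3465 and 2501 with median centring and 421 and 12046 with hybridisation control scaling (1725 to 2269 and 3069 to 4456 without 1 array). AtGATA2ox against bri1-116 had 2172 and 3914, but 936 and 7743 with that scaling and 1071 and 1207 with bri1-116 replicate 3 alone (1775 to 2173 and 2807 to 4227 without 1 array). The bri1-116 comparison with Col had 1612 and 1819, but 976 and 1128 without a trend, 479 and 3691 with hybridisation control scaling, 571 and 845 with replicate 3 alone, and 2776 lower in the fit of 2 genotypes (1055 to 1900 and 1097 to 2215 without 1 array, both lowest without Col replicate 2). With bri1-116 replicate 3 alone, that array is assumed to vary like the other groups.

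Of the 49 other oxidase genes, 5 higher and 8 lower in AtGATA2ox against Col became 3 higher without a trend, and 0 and 13 with hybridisation control scaling (4 to 6 and 6 to 9 without 1 array). AtGATA2ox against bri1-116 had 8 higher and 3 lower, where 9.55% and 17.2% of all probe sets were called. These became 4 and 1 without a trend and 3 and 10 with hybridisation control scaling. With median centring 1 was lower (4 to 8 higher and 1 to 3 lower without 1 array). The bri1-116 comparison with Col, with 1 higher, had 2 with the floor, the fit of 2 genotypes or quantile normalisation, and 0 with hybridisation control scaling or replicate 3 alone (1 to 2 higher and 5 to 10 lower without 1 array). Of 32 calls of named oxidase genes, 11 held in all settings run and 21 were lost in some. The causes were not tested. With the replicate block, 2204 and 4256 probe sets were called in AtGATA2ox and 1584 and 1855 in bri1-116 against Col, and 2 calls of named genes were lost, AT1G75620 (adjusted p = 0.052 by limma) and AT4G20860 in AtGATA2ox against bri1-116 (adjusted p = 0.0503).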
